A study of Homo sapiens with 6 samples.

Results

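The 6 genes described here lie on human mitochondrial DNA and code for subunits of respiratory complexes III, IV and V. They are MT-CYB, MT-CO1, MT-CO2, MT-CO3, MT-ATP8 and MT-ATP6. Each protein gene of that DNA is called an mRNA below, although some share the same mRNA, as MT-ATP8 and MT-ATP6 do. The 6 were chosen by gene name, with earlier results of these data known, and found among the 20035 genes of the deposited table. All 6 passed the filter on low counts, which left 12356 genes. RNA captured on oligo(dT) beads was sequenced from HaCaT cells, which are spontaneously immortalized skin keratinocytes, with a wild-type genotype in the labels. The groups were 3 libraries labelled palmatine, a protoberberine plant alkaloid, and 3 control libraries labelled with no treatment. The series describes IL-17 stimulation before palmatine, but the labels do not say which libraries received IL-17, and they give no dose or time. Whether the replicates are separate cultures is not stated, so p-values measure only the spread between these libraries, which may be technical.

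Total counts ran from 12908646 to 17218171 per library. All 13 keratinocyte markers examined were tested, with mean levels from 52.6 FPKM to 969.8 FPKM, the highest for KRT14, a basal keratin, and none of 19 markers of fibroblasts, melanocytes, endothelium and leukocytes exceeded a mean of 1.94 FPKM. COL1A2, TYR, DCT, CD3D and CD2 had 0 counts in every library, while COL3A1 and MLANA, at most 0.349 FPKM in any library, were higher at an unadjusted p under 0.05 (adjusted p = 0.455 each in edgeR). Of all tested genes, 907 had a length of at most 2000 bases, as all 6 mRNAs do, and their median log2 fold change was -0.20, against 0.0094 for longer genes.

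Mitochondrial DNA is transcribed from both strands as long precursors that are cut mainly at the tRNAs lying between the protein genes. Most of the released mRNAs are polyadenylated, which lets oligo(dT) beads capture them, and the LRPPRC-SLIRP protein pair binds and stabilizes many of them. Their products are the cores of enzymes that are otherwise built from nuclear gene products: cytochrome b of complex III, the catalytic and proton-pumping core of cytochrome c oxidase (complex IV), and membrane subunits of ATP synthase (complex V). MT-ATP8 and MT-ATP6 are read from a single bicistronic mRNA.

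The 13 protein genes of mitochondrial DNA in the table had the identifiers, positions and lengths of GENCODE release 29 on GRCh38. The sequences below come from its transcript file. They are shown because MT-ATP8 and MT-ATP6, which share these bases on the same mRNA, differed in their counts. MT-ATP8 (ENSG00000228253, chrM:8366-8572, plus strand) and MT-ATP6 (ENSG00000198899, chrM:8527-9207, plus strand) overlap by 46 bases, positions 8527 to 8572, read in different frames. The shared bases are in capitals, in the whole of MT-ATP8 and in the first 100 bases of MT-ATP6 (chrM:8527-8626).
MT-ATP8: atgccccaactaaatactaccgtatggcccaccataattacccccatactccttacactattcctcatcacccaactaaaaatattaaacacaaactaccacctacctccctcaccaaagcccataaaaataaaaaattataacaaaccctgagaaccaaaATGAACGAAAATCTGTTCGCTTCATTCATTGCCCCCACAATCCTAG
MT-ATP6: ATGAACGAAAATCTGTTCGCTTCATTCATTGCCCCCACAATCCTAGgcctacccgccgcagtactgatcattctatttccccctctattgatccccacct
The shared bases made up 22.2% of MT-ATP8 and 6.76% of MT-ATP6, leaving 161 bases of MT-ATP8 outside the overlap. The whole MT-ATP8 frame is 207 bases long, shorter than the cDNA fragments of about 400 to 500 base pairs that were selected for the libraries.

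No tRNA lies between MT-ATP6 and MT-CO3 (ENSG00000198938, chrM:9207-9990, plus strand), which share 1 base. It is in capitals in the junction at chrM:9184-9230.
MT-ATP6 to MT-CO3: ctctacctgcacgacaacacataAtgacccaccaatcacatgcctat
The other members are MT-CO1 (ENSG00000198804, chrM:5904-7445), MT-CO2 (ENSG00000198712, chrM:7586-8269) and MT-CYB (ENSG00000198727, chrM:14747-15887), all on the plus strand. MT-CO1 follows MT-TY and precedes MT-TS1, both tRNA genes of the opposite strand. MT-CYB follows MT-TE, likewise on the opposite strand, and MT-CO2 lies between MT-TD and MT-TK on its own strand.

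The 6 reading frames differ in how they close. These are ends of frames and not always of mRNAs, since the MT-ATP8 frame ends inside MT-ATP6. The last 30 bases of each frame are given with the stop bases in capitals.
MT-CYB: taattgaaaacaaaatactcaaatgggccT
MT-CO1: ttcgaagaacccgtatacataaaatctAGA
MT-CO2: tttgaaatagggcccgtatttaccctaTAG
MT-CO3: tgtatgtctccatctattgatgagggtctT
MT-ATP8: tcgcttcattcattgcccccacaatccTAG
MT-ATP6: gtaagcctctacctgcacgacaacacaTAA
MT-CYB and MT-CO3 end on a lone T, and the poly(A) tail supplies the rest of their stop codon. The other 4 frames are complete, with MT-CO1 ending on AGA, which ends translation in human mitochondria although it codes for arginine in the cytosol.

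Per length, the 6 mRNAs stood in the same order in 6 of 6 libraries: MT-CO2, MT-CO1, MT-CO3, MT-CYB, MT-ATP6 and MT-ATP8, from high to low. MT-CO2 averaged 13262 ± 632 FPKM in palmatine and 16841 ± 557 FPKM in control libraries (SD, n = 3 each). MT-CO1 averaged 10001 ± 427 FPKM in palmatine and 12254 ± 492 FPKM in control libraries, and MT-CO3 averaged 9372 ± 418 FPKM in palmatine and 10032 ± 183 FPKM in control libraries (SD, n = 3 each). In palmatine libraries the ranges of MT-CO1 and MT-CO3 overlapped, and in control libraries they did not. MT-CYB averaged 4028 ± 173 FPKM in palmatine and 5248 ± 102 FPKM in control libraries (SD, n = 3 each). MT-ATP6 averaged 3583 ± 228 FPKM in palmatine and 3575 ± 239 FPKM in control libraries, whereas MT-ATP8 averaged 196 ± 29.6 FPKM in palmatine and 341 ± 19.1 FPKM in control libraries (SD, n = 3 each).

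In palmatine libraries MT-ATP8 had the largest difference from control among the 6 mRNAs, MT-CYB, MT-CO2 and MT-CO1 had smaller ones of similar size, and MT-CO3 and MT-ATP6 had the smallest. None of the 6 passed an adjusted p of 0.05 over all tested genes in edgeR's quasi-likelihood test, where 0.0405% of genes passed, all of them lower. At an unadjusted p under 0.05, 4 of the 6 were lower and 0 higher in edgeR (MT-ATP8, MT-CYB, MT-CO2 and MT-CO1), while 4.69% of all tested genes were lower and 5.13% higher. DESeq2 called the same 4 lower after adjustment, against 0.113% of genes called lower, and limma-voom called 0 of the 6. For 5 of the 6, all but MT-ATP6, each palmatine library lay below each control library, a pattern found in 5.71% of tested genes, with 6.68% apart in the other direction and 12.4% in either. All 6 log2 fold changes were below 0, as were 50.4% of those tested, and their median was -0.38. It was -0.00178 over all tested genes and -0.20 over those of at most 2000 bases, as all 6 are. Log2 fold change correlated with length over all tested genes (Spearman correlation 0.443). With a trend on gene length removed, MT-CO3 and MT-ATP6 were positive, at 0.081 and 0.20, while MT-ATP8, MT-CYB, MT-CO1 and MT-CO2 stayed below 0. In such bulk libraries, less of these RNAs per cell cannot be told apart from a different mix of cells.

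**Figure D1:**
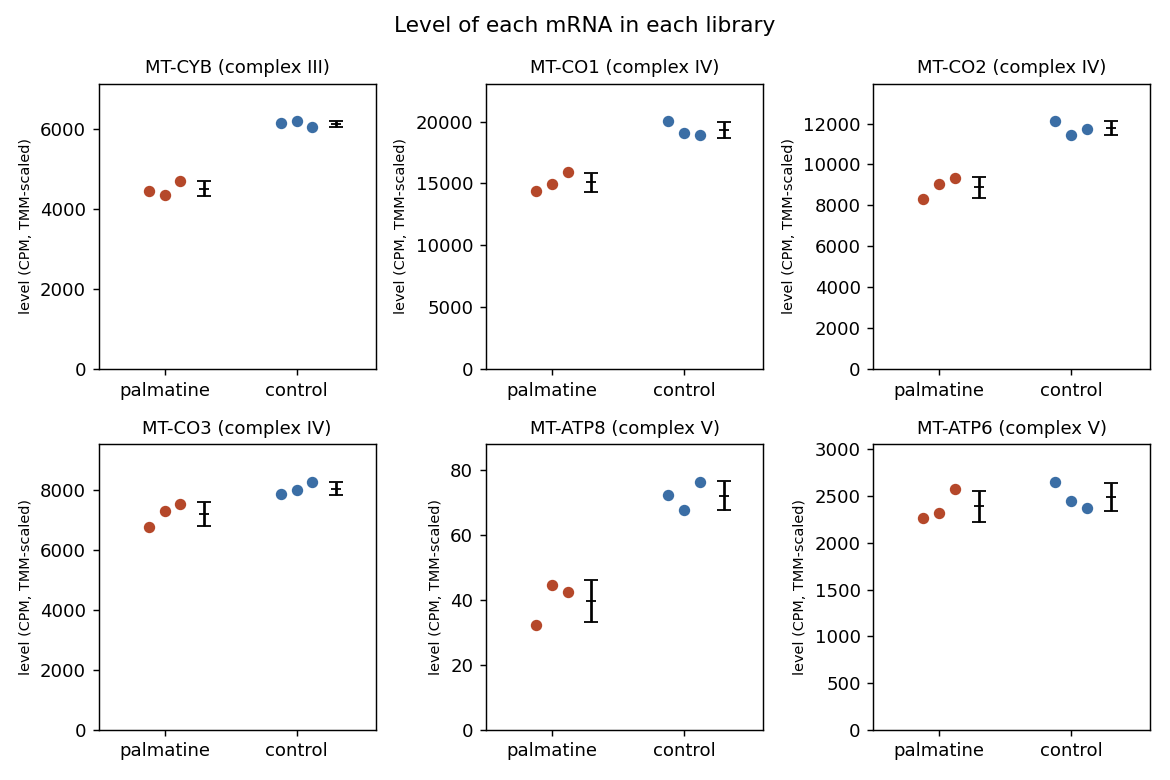
Level of each mRNA in each library, in CPM on TMM-scaled library sizes, with palmatine libraries at left in red and control libraries at right in blue; points are libraries and bars are the mean ± SD (n = 3 each). The palmatine points lie below the control points in every panel except MT-ATP6.

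MT-CYB, the only mitochondrially encoded subunit of complex III, makes cytochrome b, which carries the quinone-binding sites of that enzyme. It was at 4450, 4339 and 4705 CPM in palmatine libraries, against 6137, 6197 and 6039 CPM in control libraries. The groups were separated by more than the spread within either of them, and the means were 4498 ± 188 CPM in palmatine and 6124 ± 79.7 CPM in control libraries (SD, n = 3 each). The log2 fold change was -0.45 ± 0.0765 (SE; 95% interval -0.62 to -0.27), with an unadjusted p of 0.00021 and an adjusted p of 0.289 in edgeR. DESeq2 gave an adjusted p of 3.14e-06, the only pass in 21 alternative analyses, and the sign turned to 0.10 after quantile normalization. With a trend on gene length removed, its log2 fold change was -0.25 (adjusted p = 0.468 in edgeR). Of all 12356 tested genes, MT-CYB had the 9th smallest p in edgeR.

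MT-CO1, the complex IV subunit that holds the oxygen-reducing heme and copper centre, had the most counts of the 6. It was at 14413, 14972.5 and 15908 CPM in palmatine libraries, against 20057, 19039 and 18876 CPM in control libraries. The highest palmatine library stayed below the lowest control library, with means of 15098 ± 755 CPM in palmatine and 19324 ± 640.2 CPM in control libraries (SD, n = 3 each). The log2 fold change was -0.36 ± 0.0845 (SE; 95% interval -0.55 to -0.17), with an adjusted p of 0.455 in edgeR and 0.00688 in DESeq2. It passed in 1 of 21 alternative analyses, DESeq2. With the length trend removed, its log2 fold change was -0.21 (adjusted p = 0.506 in edgeR).

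MT-CO2, which carries the copper site that takes electrons from cytochrome c, was at 8306, 9025 and 9316 CPM in palmatine libraries, against 12133, 11461 and 11749 CPM in control libraries. Palmatine replicate 1 was the lowest library and control replicate 1 the highest. The log2 fold change was -0.41 ± 0.0837 (SE; 95% interval -0.60 to -0.22), with an adjusted p of 0.455 in edgeR and 0.000535 in DESeq2. DESeq2 was again the only 1 of 21 alternative analyses that called it. With the length trend removed, its log2 fold change was -0.15 (adjusted p = 0.603 in edgeR). The intervals of MT-CO1, MT-CO2 and MT-CYB covered one another's estimates.

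MT-CO3, the third core subunit of complex IV, differed less. It was at 6762, 7283 and 7539.8 CPM in palmatine libraries, against 7874, 7984 and 8279 CPM in control libraries. The gap between the highest palmatine and the lowest control library was smaller than the spread within the palmatine group. The log2 fold change was -0.16 ± 0.0814 (SE), its 95% interval ran from -0.34 to 0.022, and the adjusted p was 0.455 in edgeR and 0.593 in DESeq2. It was positive in 2 of 21 alternative analyses, at 0.081 with a trend on gene length removed and 0.040 with FPKM rescaled to TPM.

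MT-ATP6 encodes the ATP synthase subunit that forms the proton path beside the rotor ring. It was at 2268, 2323 and 2576 CPM in palmatine libraries, against 2655, 2444 and 2369 CPM in control libraries. The groups overlapped, with palmatine replicate 3 above control replicates 2 and 3. The log2 fold change was -0.060 ± 0.0845 (SE; 95% interval -0.25 to 0.13; adjusted p = 0.752 in edgeR), and its sign was positive in 7 of 21 alternative analyses.

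MT-ATP8, a small subunit of the ATP synthase stalk region, had the largest difference and the fewest counts of the 6. It had 578, 683 and 678 counts in palmatine libraries, against 939, 1042 and 958 counts in control libraries. On the scaled level these were 32.4, 44.6 and 42.3 CPM in palmatine libraries, against 72.3, 67.8 and 76.5 CPM in control libraries. All 3 palmatine values lay far below the control values, and MT-ATP8 was 1.82 times lower in palmatine libraries. The log2 fold change was -0.86 ± 0.117 (SE; 95% interval -1.125 to -0.60), with an unadjusted p of 3.33e-05 and an adjusted p of 0.0686 in edgeR. It passed in 4 of 21 alternative analyses, namely DESeq2 (adjusted p = 7.77e-08), no filter on low counts (0.00441), the replicate block (0.00204) and without palmatine replicate 1 (0.0383), and its adjusted p over all 21 ran from 7.77e-08 to 0.453. With the length trend removed its log2 fold change was -0.46 (adjusted p = 0.345 in edgeR).

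MT-ATP8 and MT-ATP6 lie on the same mRNA and were compared by their ratio within each library, which, as for any pair of genes, does not depend on scaling between libraries. Palmatine libraries held 1.43, 1.92 and 1.64 MT-ATP8 counts per 100 MT-ATP6 counts, against 2.72, 2.77 and 3.23 in control libraries. The groups did not overlap. The log2 ratio averaged -5.92 ± 0.213 in palmatine and -5.11 ± 0.135 in control libraries (SD, n = 3 each), a difference of -0.81 (exact permutation test, two-sided p = 0.1, the smallest that 3 against 3 libraries allow). Set against its other neighbours the difference had the same direction, at -0.71 against MT-CO3 and -0.46 against MT-CO2, each again with an exact permutation p of 0.1. All these ratios use the same MT-ATP8 counts, so they are not independent of one another. They also set a frame of 207 bases against longer ones, and log2 fold change correlated with length over all tested genes. With the length trend removed, the log2 fold changes were -0.46 for MT-ATP8, 0.20 for MT-ATP6, 0.081 for MT-CO3 and -0.15 for MT-CO2. The part of length in these ratios was not tested.

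**Figure D2:**
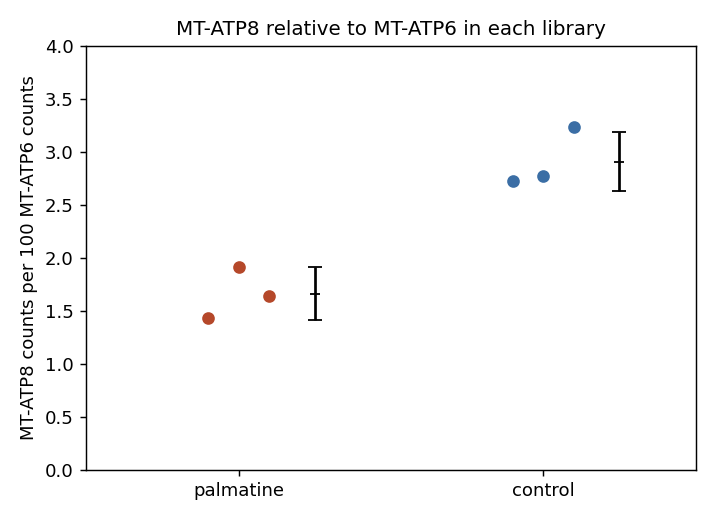
MT-ATP8 counts per 100 MT-ATP6 counts in each library, with palmatine at left and control at right; points are libraries and bars are the mean ± SD (n = 3 each). The palmatine libraries lie between 1.43 and 1.92, all below the control libraries, which lie between 2.72 and 3.23.

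Per length, MT-ATP8 stood at 5.47% ± 0.808 of MT-ATP6 in palmatine and 9.57% ± 0.921 in control libraries (SD, n = 3 each), although both frames belong to the same mRNA. The counts of the 46 shared bases cannot be separated from the rest in a table of counts per gene. The treatment of reads that touch both frames is not known from the labels, and its part in the MT-ATP8 result was not tested.

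Summed, the 6 mRNAs took 3.76%, 3.84% and 4.08% of all counts in palmatine libraries, against 4.82%, 4.62% and 4.59% in control libraries, without overlap. The 7 mRNAs for complex I subunits from the same genome took 1.52% ± 0.121 of all counts in palmatine and 2.80% ± 0.228 in control libraries (SD, n = 3 each). Of the counts of all 13 mitochondrially encoded mRNAs, the 6 therefore made up 71.3%, 73.2% and 71.2% in palmatine libraries, against 61.2%, 62.9% and 63.7% in control libraries. The share of these mRNAs within the mitochondrial total was thus higher in palmatine, while their share of the library was lower.

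Within the 6, the shares must sum to the whole, so a higher share of one goes with a lower share of others. MT-CO3 made up 18.9% ± 0.263 of the 6 in palmatine and 16.8% ± 0.694 in control libraries, and MT-ATP6 made up 6.27% ± 0.156 in palmatine and 5.20% ± 0.215 in control libraries (SD, n = 3 each). MT-CO2 made up 23.3% ± 0.421 in palmatine and 24.6% ± 0.294 in control libraries, and MT-CYB 11.8% ± 0.435 in palmatine and 12.8% ± 0.299 in control libraries (SD, n = 3 each). MT-CO1 made up 39.6% ± 0.190 in palmatine and 40.4% ± 0.582 in control libraries, and MT-ATP8 0.104% ± 0.0140 in palmatine and 0.151% ± 0.00936 in control libraries (SD, n = 3 each). None of the 6 shares overlapped between the groups, though for MT-CO1 the highest palmatine library (39.78%) lay close to the lowest control library (39.83%). The 6 shares are tied to one another, and 12.4% of all tested genes did not overlap in level in either direction.

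Along the mitochondrial DNA, the log2 fold changes did not follow a single course. They were -1.84 for MT-ND1 and -1.54 for MT-ND2, then -0.36 for MT-CO1, -0.41 for MT-CO2, -0.86 for MT-ATP8, -0.060 for MT-ATP6 and -0.16 for MT-CO3. Farther on they were -0.997 for MT-ND3, -0.17 for MT-ND4L, 0.028 for MT-ND4, -1.21 for MT-ND5, -1.33 for MT-ND6 on the other strand and -0.45 for MT-CYB. MT-ND1, MT-ND2, MT-ND5 and MT-ND6, all for complex I subunits, were lower after adjustment in edgeR (adjusted p from 0.000439 to 0.00204). The 95% intervals of MT-ND1 (-2.12 to -1.57) and MT-ND2 (-1.77 to -1.31) lay below those of all 6 mRNAs for complexes III to V. The adjacent MT-ATP8 and MT-ATP6 had intervals that did not meet, and the interval of MT-CYB lay above those of MT-ND6 and MT-ND5, the protein genes before it.

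**Figure D3:**
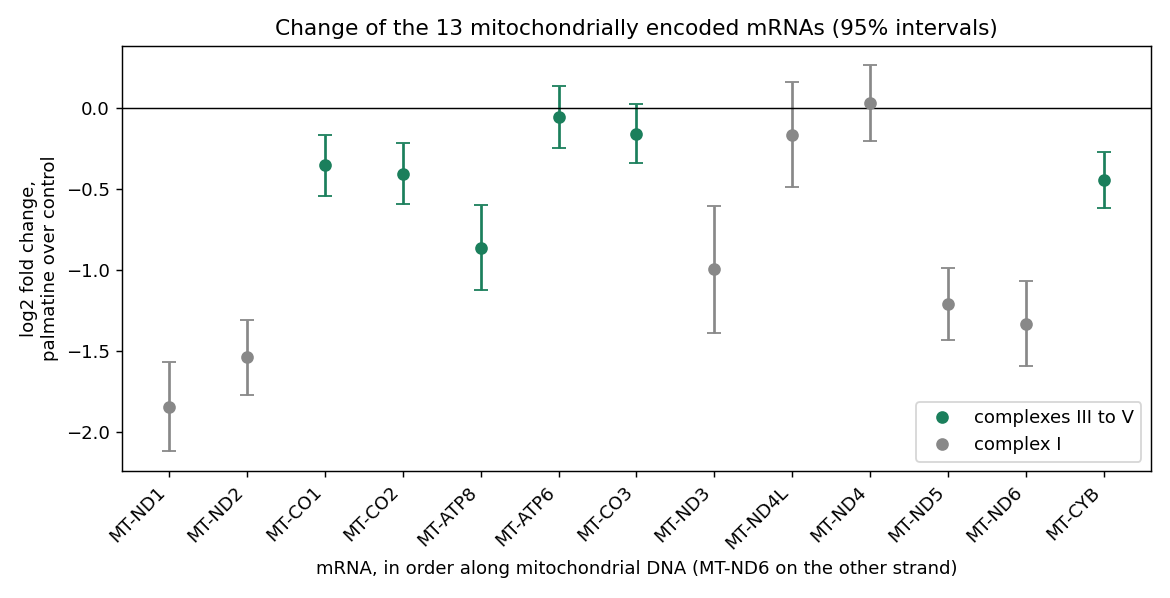
Log2 fold change of palmatine over control for the 13 mitochondrially encoded mRNAs in their order along mitochondrial DNA; points are estimates from edgeR, bars are 95% intervals, green marks complexes III to V and grey complex I. MT-ATP6, MT-CO3, MT-ND4L and MT-ND4 have intervals that include 0, while MT-ND1 is lowest at -1.84.

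Over the 6 libraries, MT-ATP6 varied apart from the others. The Pearson correlation of its log2 CPM with each of the other 5 ran from 0.450 to 0.601, and that among the other 5 from 0.864 to 0.993. These correlations include the difference between the groups, and within each library both mRNAs of a pair share its depth and scaling. Of all tested genes, those most like MT-CYB were MT-ND5 (r = 0.996), MT-ND6 (r = 0.991) and MT-ND2 (r = 0.991). The pattern of MT-CO1 was closest to PRKAG1 (r = 0.994), which encodes a regulatory subunit of AMP-activated kinase, MT-CO2 (r = 0.993) and PDZD7 (r = 0.986). MT-CO2 was closest to PRKAG1 (r = 0.998), MT-CO1 and MT-ATP8 (r = 0.984), although PRKAG1 had a mean of only 0.944 CPM. MT-CO3 was closest to NAPA, a vesicle fusion adaptor (r = 0.994), LIN9 (r = 0.982) and AQP3 (r = 0.980). MT-ATP8 was closest to ZNF706 (r = 0.996), THAP2 (r = 0.992) and ZNF330 (r = 0.986), and MT-ATP6 to ASPHD1 (r = 0.986), CD74 (r = 0.976) and CCDC68 (r = 0.964). PDZD7, ASPHD1 and CCDC68 were low too, at means of 0.848, 1.20 and 1.77 CPM. These genes were picked as the highest of all tested genes over only 6 libraries, so high r follows in part from the selection. No correlation was tested.

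The nuclear genes for the remaining subunits of complexes III to V had mostly small negative values, and none passed the adjusted threshold in edgeR, DESeq2 or limma-voom. Of 9 tested complex III genes 9 had a negative log2 fold change, against 50.4% of all tested genes, with a median of -0.19. Each palmatine library lay below each control library for 0 of the 9, against 5.71% of all tested genes. Of these 9, 1 was lower at an unadjusted p under 0.05, against 4.69% of all tested genes. This was UQCRH, the hinge protein beside cytochrome c1, at 112 ± 14.4 FPKM in palmatine and 130 ± 9.78 FPKM in control libraries (SD, n = 3 each; log2 fold change -0.28, adjusted p = 0.455 in edgeR). UQCRFS1, the Rieske iron-sulfur protein, had a log2 fold change of -0.24, UQCRB one of -0.29 and UQCRC2, a core protein, one of -0.16.

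Of 11 tested complex IV genes all 11 had negative values, with a median of -0.30, and 1 was lower at an unadjusted p under 0.05, NDUFA4, which was first assigned to complex I, at a log2 fold change of -0.33. COX7C, COX7B and COX6B1, small subunits around the core, had log2 fold changes of -0.32, -0.30 and -0.30. Of 18 tested complex V genes 17 had negative values, with a median of -0.24, and 5 were lower at an unadjusted p under 0.05. Among them ATP5MC1, a gene for the rotor ring, had a log2 fold change of -0.28, ATP5PD one of -0.32, ATP5PB one of -0.24 and ATP5F1D, of the central stalk, one of -0.24. Of all tested genes, 4.69% were lower at an unadjusted p under 0.05. Each palmatine library lay below each control library for 0 of the 11 complex IV and 1 of the 18 complex V genes. That held for 5.71% of all tested genes. With the length trend removed, the medians were -0.12 for complex III, -0.17 for complex IV and -0.17 for complex V. With FPKM rescaled to TPM, which moved the median of all genes by 0.18, they were 0.0092, -0.10 and -0.036. Single libraries moved them too: without palmatine replicate 1 they were -0.10, -0.17 and -0.13, and without palmatine replicate 2 they were -0.35, -0.46 and -0.31. Without control replicate 1 the complex III median was -0.30, and without control replicate 3 those of complexes IV and V were -0.18 and -0.16.

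Factors that act on the 6 mRNAs or their products were examined as well. Of 31 tested, 28 had a negative log2 fold change, against 50.4% of all tested genes, with a median of -0.11 that turned to 0.091 as TPM and was -0.18 without palmatine replicate 2. At an unadjusted p under 0.05, 6 were lower and 0 higher, against 4.69% lower and 5.13% higher of all tested genes. After adjustment, 0 passed in edgeR, DESeq2 or limma-voom. Each palmatine library lay below each control library for 4 of the 31, against 5.71% of all tested genes. LRPPRC, which stabilizes mitochondrial mRNAs, was at 10.2 ± 0.623 FPKM in palmatine and 10.1 ± 0.624 FPKM in control libraries (SD, n = 3 each; log2 fold change -0.049). Its partner SLIRP had a log2 fold change of -0.42 with a wide 95% interval, from -0.88 to 0.046. FASTKD5, which is needed to process mRNA ends that no tRNA borders, had a log2 fold change of -0.0055 (95% interval -0.17 to 0.16).

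TACO1, a translational activator of MT-CO1, had the smallest p of these factors. It was at 1.51 ± 0.197 FPKM in palmatine and 2.06 ± 0.0728 FPKM in control libraries (SD, n = 3 each; log2 fold change -0.51, unadjusted p = 0.0067 and adjusted p = 0.455 in edgeR). TMEM177 and COX18, which act in the maturation of the MT-CO2 protein, had log2 fold changes of -0.35 and -0.27. TBRG4, a FASTK-family RNA-binding protein, had one of -0.23. None of these 3 passed the adjusted threshold, at an adjusted p of 0.455 each in edgeR.

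**Figure D4:**
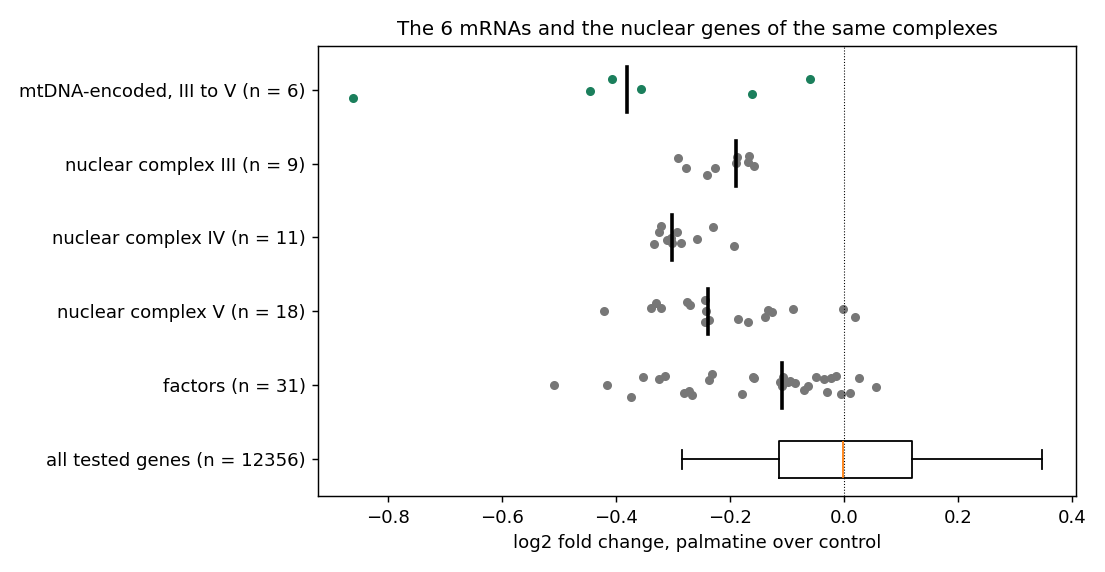
Log2 fold change of palmatine over control for the 6 mitochondrially encoded mRNAs (green), for the nuclear genes of the same complexes and the factors acting on the mRNAs or their products (grey), and for all 12356 tested genes (box with quartiles and median, whiskers from percentile 5 to percentile 95); thick bars are medians. The median is -0.38 for the 6 mRNAs and from -0.30 to -0.11 for the nuclear lists.

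Reads of these mRNAs can be shared with copies of mitochondrial DNA in the nuclear genome. GENCODE 29 names 45 such copies for MT-CO1, 42 for MT-CYB, 36 for MT-CO3, 29 for MT-CO2, 25 for MT-ATP6 and 2 for MT-ATP8, and 0 rows of the table carried the name of one. Nor do the labels state whether counting used strand, so reads of opposite-strand RNA over these genes cannot be told apart.

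**Figure D5:**
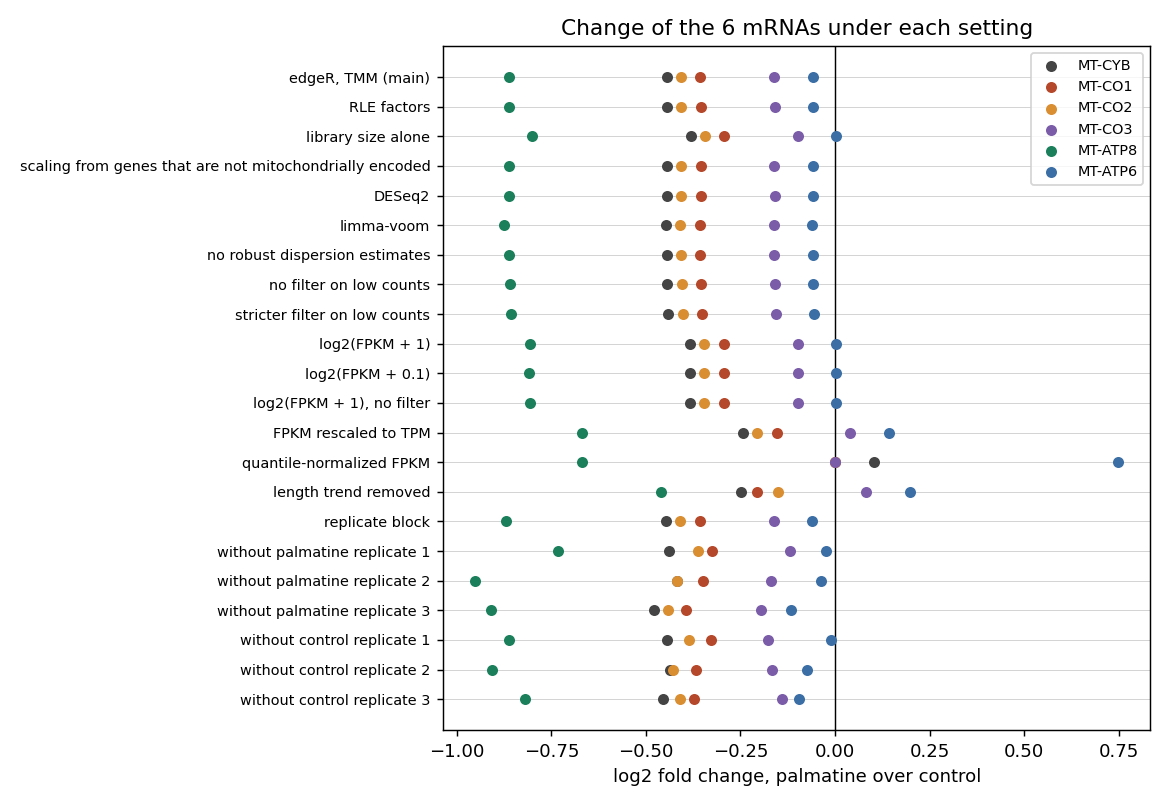
Log2 fold change of palmatine over control for each of the 6 mRNAs (colours) in the main analysis, at the top, and under each of 21 alternative settings; no error bars are drawn. MT-ATP8 is lowest in every setting, and MT-ATP6 ranges from -0.12 to 0.75.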

How the data were processed

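Per the submitters' processing notes, HISAT2 2.1.0 and HTSeq 0.9.1 were used. Build, annotation, strand setting and counting mode were not stated. The deposited table holds raw read counts and FPKM, per the file headers. The FPKM deposited by the authors equalled count per gene length and library total within 1e-05 of its size for 100% of values. Symbols and positions were taken from the table, and 1 line was not analysed here.

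Genes were kept with filterByExpr (minimum count 10), scaled with TMM factors and tested with the edgeR 4.0.16 quasi-likelihood test (R 4.3.3) without covariates, two-sided, Benjamini-Hochberg adjusted over 12356 genes. CPM are on TMM-scaled library sizes; FPKM are as deposited. Alternatives used DESeq2 1.42.0, limma 3.58.1 (voom, or log2(FPKM + 1)), other scalings and filters, a loess trend on gene length (span 0.3), a replicate block and each library left out. The edgeR fit was also run on counts simulated at its own dispersion estimates, without a length trend, and the outcome is not given here. Sequences are from GENCODE 29.

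The mRNAs and lists were chosen with earlier results of these data known. Named besides all 13 mitochondrial mRNAs were, per nuclear list, the 4 genes with the smallest p, the 3 genes most correlated with each of the 6 mRNAs, and LRPPRC, SLIRP, FASTKD5 and TACO1. KRT14, COL3A1, MLANA and the markers at 0 counts were named after their values were seen.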

Additional observations from a re-analysis of the deposited data

How the results depend on the processing

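The threshold was passed by 5 genes, 0 of them among the 6 mRNAs. The counts were 14 and 4 with DESeq2, 8 and 1 without a count filter, 8 and 0 with the length trend removed and 0 and 0 with unfiltered FPKM. The replicate block gave 9 and 1, but same-numbered libraries did not deviate together in every pair (correlations 0.399, 0.178 and -0.0963), so the numbers were not taken to pair them. Leaving out 1 library gave 5 to 6 genes and 0 to 1 of the mRNAs, the 1 being MT-ATP8 without palmatine replicate 1. Quantile normalization, which gives equal ranks equal values, called 1 mRNA, MT-ATP6, as higher.

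Signs turned for MT-ATP6 (0.0032 with library size alone, 0.0034 with log2 FPKM under both pseudocounts and unfiltered, 0.14 as TPM, 0.75 quantile-normalized, 0.20 with the length trend removed), MT-CO3 (0.040 as TPM, 0.081 with the length trend removed), MT-CYB (0.10 quantile-normalized), MT-ND4L (0.018 as TPM, 0.45 quantile-normalized, 0.19 with the length trend removed) and MT-ND4 (-0.037 without palmatine replicate 3, -0.0061 without control replicate 2 and -0.023 without control replicate 3, within a range of -0.037 to 0.12 over single libraries left out). Quantile normalization put MT-CO1, MT-CO2, MT-CO3 and MT-ND3 at 0. Rescaling to TPM moved the median of all genes by 0.18. The cause of these turns was not tested.

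Complex I calls numbered 4; they were 5 with DESeq2, the length trend removed or the replicate block (MT-ND3 added), 0 with unfiltered FPKM and 2 after quantile normalization (MT-ND2 lower, MT-ND4 higher at 0.81). The median of -1.21 moved to -1.02 as TPM, -0.24 quantile-normalized and -1.02 with the length trend removed. As TPM the medians were -0.036 for nuclear complex V and 0.091 for the factors. The log2 ratio of the summed share, palmatine over control, was -0.27, but 0.20 as a share of the mitochondrial mRNAs and -0.12 with FPKM sums. MT-ATP8 kept its negative sign in all 21 alternatives. MT-ATP8, with 578 to 1042 counts per library, is the least precisely counted of the 6.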
